A study of Mus musculus with 4 samples.

Results

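F-box proteins are the interchangeable substrate adaptors of SCF ubiquitin ligases, and 66 of the 18193 genes named on the array carry a symbol of the Fbxl, Fbxo or Fbxw type. A gene was taken as a member when at least 1 probe set was annotated to that single symbol. Where a gene had several probe sets, the one brightest on average across the 4 arrays stood for it. There were 16 Fbxl genes, whose proteins carry leucine-rich repeats, 18 Fbxw genes, whose proteins carry WD40 repeats, and 32 Fbxo genes, whose proteins carry other or no recognised substrate-binding domains.

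The cells were primary keratinocytes from newborn C57BL/6 mice, cultured as p38a-KO or WT. The p38a kinase, encoded by Mapk14, is activated by cell stress. The 4 groups were p38a-KO cells 4 h after UVB at 75 mJ/cm2, p38a-KO cells without irradiation, WT cells 4 h after UVB and WT cells without irradiation, with 1 array each. How Mapk14 was deleted is not spelled out, and no mock-treated culture kept for 4 h is named, so a UVB response also holds any effect of time and handling. With 1 array a group, differences within 1 genotype or 1 condition could not be set against a spread between cultures, and the small number of arrays limits their precision.

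In an SCF ligase the F-box of the adaptor binds Skp1, Skp1 binds the scaffold Cul1, and the RING protein Rbx1 brings in the ubiquitin-conjugating enzyme. The rest of the adaptor selects the substrate, often after that substrate has been phosphorylated. The ligase is switched on when Nedd8 is attached to Cul1 and switched off by the COP9 signalosome. Substrates of these ligases include cyclins, Myc, Jun, the NF-kB inhibitor and clock proteins, so the adaptors act in the cell cycle, stress signalling and inflammation of many tissues, the epidermis among them.

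The deposited values are MAS5 signals, in arbitrary units on a linear scale. A floor of 24.9 units, the median over probe sets of their mean signal, was applied, and lower values were raised to it before log2 was taken. A fold that involves a raised value is given as at least that fold. Averaged over the arrays, 48 of the 66 F-box genes reached the floor and 18 did not, 13 of these lying below it on all 4 arrays. Keratinocyte markers were bright, with Krt14 between 11820 and 12588 units, while of 6 leukocyte markers Ptprc, Cd207, Cd3e and Itgam lay below the floor on every array. The other leukocyte markers were dim, with Lyz2 at 19.4 units in irradiated and 19.9 units in unirradiated KO-labelled cells, against 31.8 and 44.1 units in irradiated and unirradiated WT cells, and Cd74 above the floor only in unirradiated WT cells, at 34.4 units. The brightest Mapk14 probe set read 646.8 units in irradiated and 1449 units in unirradiated KO-labelled cells, against 292.5 units in irradiated and 985.4 units in unirradiated WT cells. It was thus not lower in the cells labelled knockout. A probe set outside the deleted part, which is not given, would check nothing, so the directions of all genotype comparisons here are those of the labels.

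**Figure D1:**
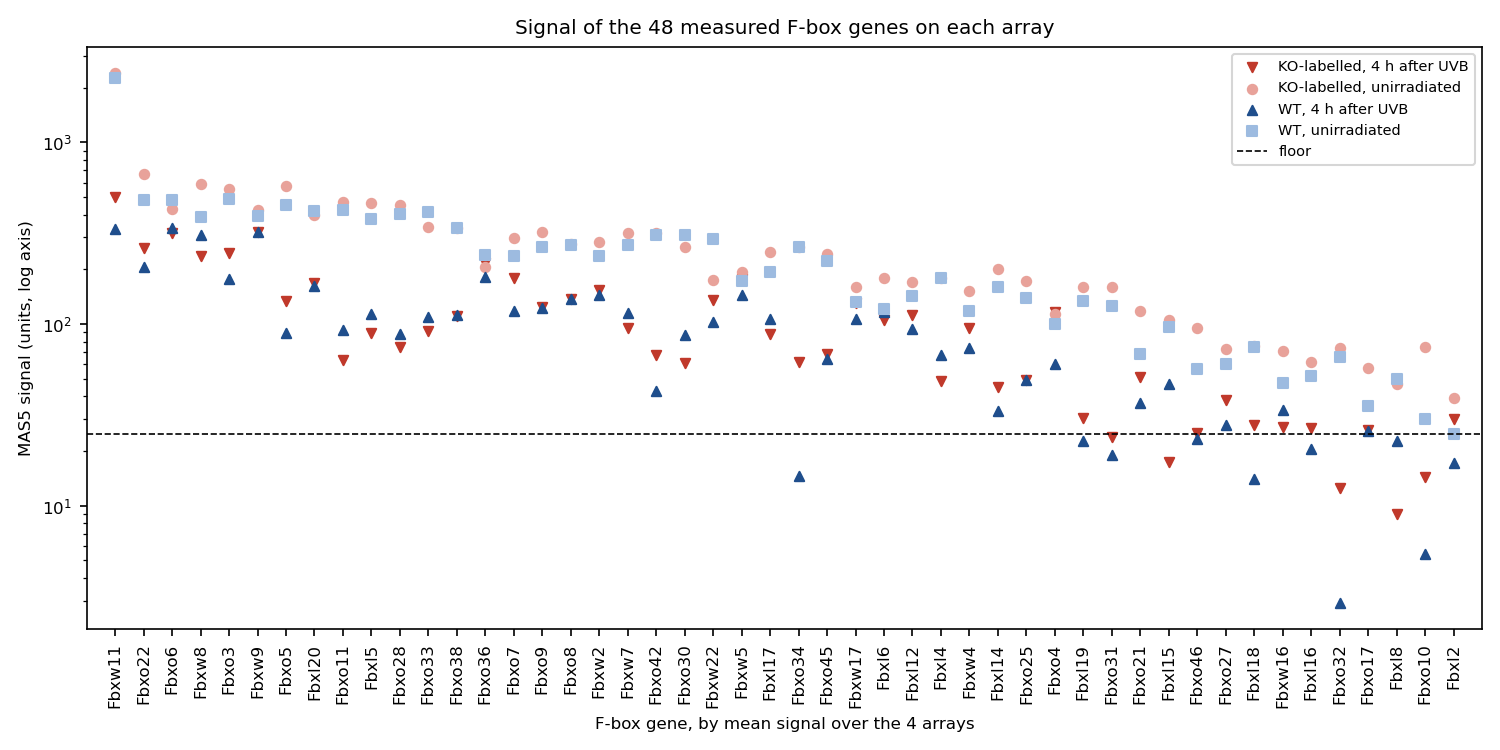
MAS5 signal (log axis) of the 48 F-box genes that reach the floor on average, ordered by mean signal, with 1 point for each array and the floor of 24.9 units as a dashed line. Fbxw11 is the brightest, with 2392 and 2265 units in unirradiated KO-labelled and WT cells, and the irradiated points lie below the unirradiated ones for most genes.

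Fbxw11, the adaptor that with its paralogue Btrc targets the NF-kB inhibitor and beta-catenin, had the highest mean signal of the family. It read 497.1 units in irradiated and 2392 units in unirradiated KO-labelled cells, against 331.5 units in irradiated and 2265 units in unirradiated WT cells. Both irradiated values lay far below both unirradiated ones, and the genotypes overlapped. The fall was 4.81-fold in KO-labelled cells and 6.83-fold in WT cells. Over both genotypes its log2 signal fell by 2.52 (SE 0.14, limma adjusted p = 2.9e-06). The brightest probe set is of a type that can cross-hybridise. Of the other Fbxw11 probe sets, 1 was 6.15-fold lower in KO-labelled and 4.22-fold lower in WT cells, and another 5.05-fold and 4.16-fold lower.

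After UVB the F-box genes were mostly lower in both genotypes. A limma fit with terms for irradiation and for genotype called 42 of the 48 F-box genes tested lower and 0 higher, and 42 had an unadjusted p under 0.05. Over all 11379 genes tested, 69.4% were called lower and 0.703% higher, and 72.8% had an unadjusted p under 0.05. The 6 that did not pass were Fbxo36, Fbxw5, Fbxw17, Fbxl6, Fbxo4 and Fbxl2. This fit has 1 residual degree of freedom, the disagreement between the responses of the genotypes, so its p-values do not measure a spread between cultures. At least 2-fold lower signal was seen for 33 of 48 in KO-labelled cells, where 39.3% of all genes tested were at least 2-fold lower, and for 29 of 48 in WT cells, where 34.8% were. Both genotypes passed 2-fold for 26 of the F-box genes, against 28.9% of all genes. A further 7 passed in KO-labelled cells alone, against 10.4% of all genes, and 3 in WT cells alone, against 5.84%. None of the 48 was at least 2-fold higher in either genotype, against 0.167% of all genes in KO-labelled and 0.58% in WT cells. The median log2 response of the F-box genes was -1.39 in KO-labelled and -1.15 in WT cells, beside -0.82 and -0.70 over all genes tested.

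Most genes on these arrays had lower signal after UVB, so the same values were also read after quantile normalization, which sets the 4 arrays to 1 distribution. The medians of all genes then lay at 0.05 in both genotypes. The F-box medians lay at -0.42 in KO-labelled and -0.36 in WT cells. In that scaling 13 F-box genes were 2-fold lower in KO-labelled cells, where 8.37% of all genes were, and 11 in WT cells, where 9.69% were. At least 2-fold higher were 2 in KO-labelled cells, against 4.07% of all genes, and 0 in WT cells, against 5.31%. The limma fit then called 17 F-box genes lower, against 20.5% of all genes, and 7 higher, against 20.3%. After median centring it called 15 lower, against 15.2%, and 7 higher, against 36.5%. The centred medians of all genes lay at 0.28 in KO-labelled and 0.32 in WT cells, and those of the F-box genes at -0.29 and -0.18. Centred signal was at least 2-fold lower for 9 F-box genes in KO-labelled cells, against 6.67% of all genes, and for 10 in WT cells, against 7.55%. It was at least 2-fold higher for 3 in KO-labelled cells, against 8.75%, and for 1 in WT cells, against 11.2%. The same 15 genes fell as deposited and under both scalings, and the same 7 genes were called higher under both scalings but not as deposited. The F-box genes can therefore be described in 3 sets: those 15, those 7, and the 26 in between.

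**Figure D2:**
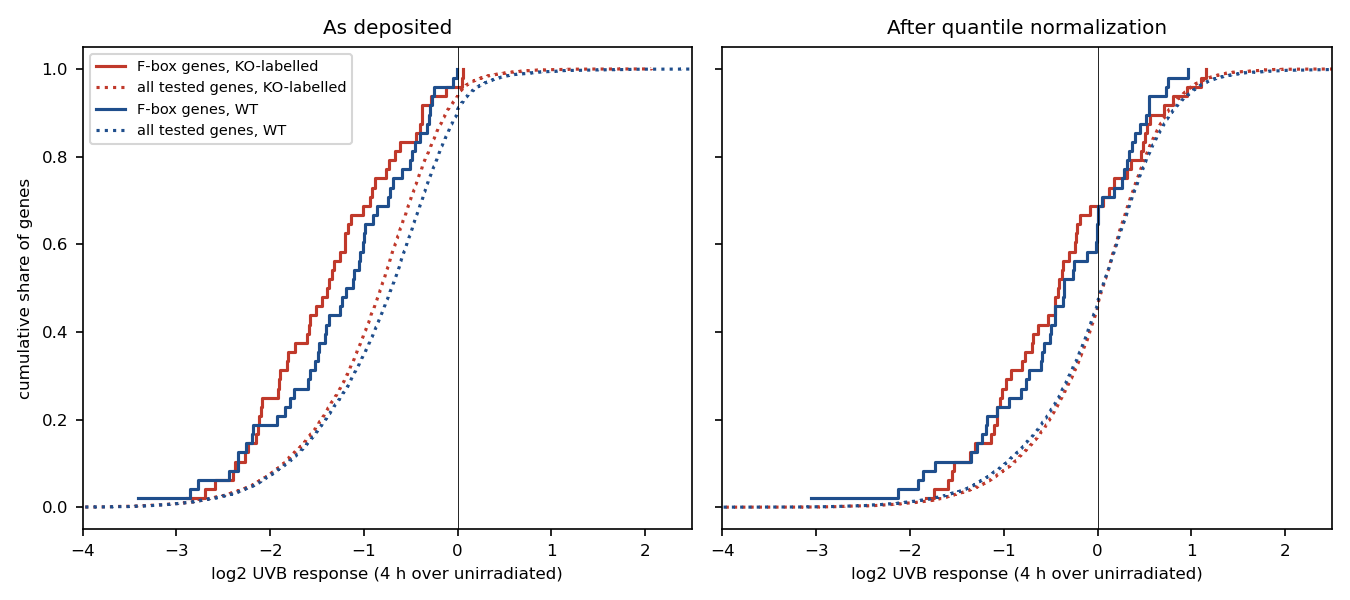
Cumulative share of genes by log2 UVB response, as deposited (left) and after quantile normalization (right), for the 48 F-box genes (solid) and all tested genes (dotted) in KO-labelled and WT cells. As deposited the F-box medians are -1.39 and -1.15, beside -0.82 and -0.70 for all genes, and in both panels the solid lines lie left of the dotted ones over most of the range.

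The 15 genes that fell under every scaling were Fbxo34, Fbxo31, Fbxo42, Fbxo11, Fbxw11, Fbxl19, Fbxo28, Fbxo5, Fbxl14, Fbxo32, Fbxl5, Fbxo30, Fbxo33, Fbxo45 and Fbxo38. Fbxo42, an adaptor linked to p53 turnover in human cells, read 67.1 units in irradiated and 316.3 units in unirradiated KO-labelled cells, against 42.7 and 308.3 units in irradiated and unirradiated WT cells. Its log2 signal fell by 2.54 (SE 0.21, limma adjusted p = 1.0e-05). Fbxo11, whose protein targets the transcriptional repressor Bcl6, read 63.7 units in irradiated and 472.2 units in unirradiated KO-labelled cells, against 92.65 and 422.6 units in irradiated and unirradiated WT cells. It fell by 2.54 (SE 0.20, limma adjusted p = 8.5e-06). For both genes each irradiated value lay below each unirradiated one. The fall in KO-labelled cells was 4.71-fold for Fbxo42 and 7.41-fold for Fbxo11, against 7.22-fold and 4.56-fold in WT cells. The second brightest Fbxo42 probe set was 3.88-fold lower in KO-labelled and 4.67-fold lower in WT cells. A dimmer Fbxo42 probe set, with both irradiated values raised to the floor, was at least 1.71-fold and at least 1.34-fold lower.

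The 7 genes at the other end were Fbxw5, Fbxo36, Fbxw17, Fbxo4, Fbxl6, Fbxw9 and Fbxo6. Fbxw5 read 177.6 units in irradiated and 193.4 units in unirradiated KO-labelled cells, against 144.8 and 172.7 units in irradiated and unirradiated WT cells. Its log2 difference after UVB was -0.19 as deposited (SE 0.17, limma adjusted p = 0.33) and 0.85 after quantile normalization (SE 0.17, limma adjusted p = 0.0038). Fbxo36 read 215.5 units in irradiated and 207.1 units in unirradiated KO-labelled cells, against 182.1 and 240.6 units in irradiated and unirradiated WT cells. Its log2 difference was -0.17 as deposited (SE 0.17, limma adjusted p = 0.39) and 0.82 after quantile normalization. Fbxw9 read 321.4 units in irradiated and 423.3 units in unirradiated KO-labelled cells, against 320.4 and 392.7 units in irradiated and unirradiated WT cells. As deposited Fbxw9 and Fbxo6 fell by 0.35 and by 0.48 (limma adjusted p = 0.044 and 0.0098). The others also had negative estimates as deposited but did not pass, so the sign of all 7 depends on the scaling.

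**Figure D3:**
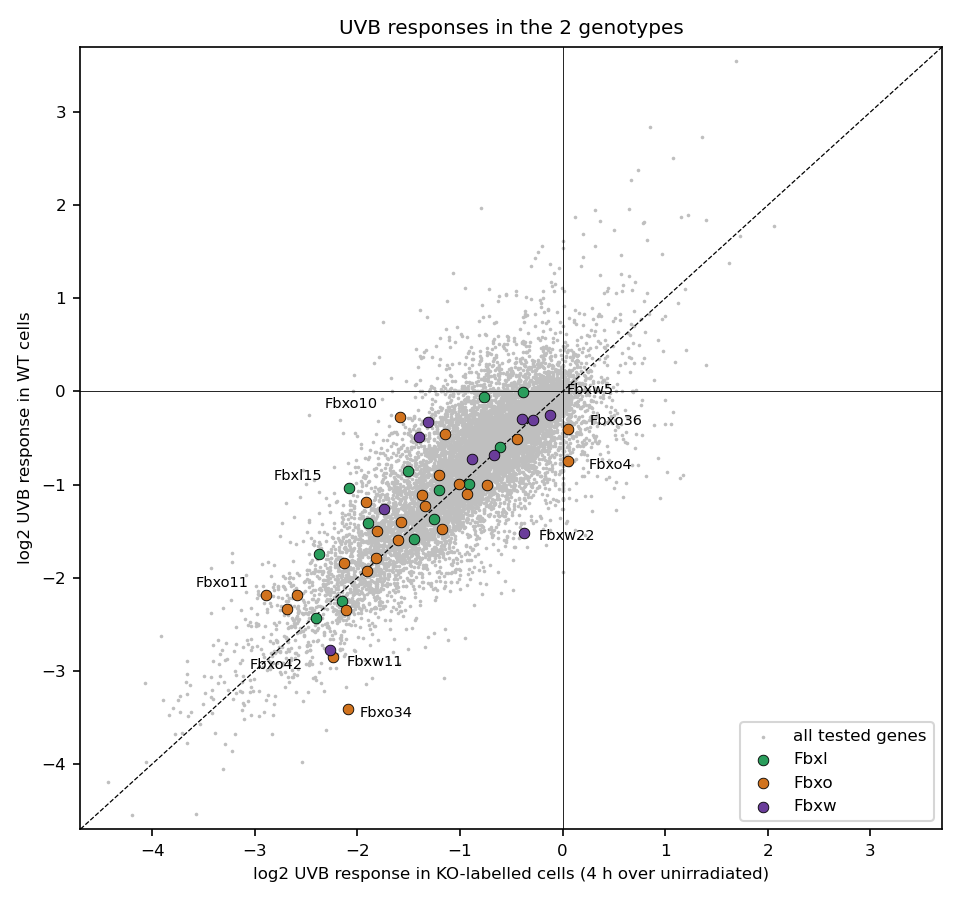
Log2 UVB response in KO-labelled cells (horizontal) against WT cells (vertical), with F-box genes coloured by subfamily, all tested genes in grey, and a dashed line where the responses are equal. F-box genes run from Fbxo11 at -2.89 and -2.19 to Fbxo36 at 0.06 and -0.40, with Fbxo34 and Fbxw22 to the right of the line and Fbxl15 and Fbxo10 (irradiated values raised to the floor) to the left.

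The promoters of genes from the ends of this range are shown so that their base composition can be compared. The 150 bases before the annotated start are from RefSeq, build GRCm38.p6, read 5′ to 3′ on the strand of the gene. They belong to the 3 lowest and 3 highest limma UVB estimates among the 16 F-box genes with signal at or above the floor on all arrays and a promoter window that ends at the annotated gene start (1 chromosome was left out). Capitals mark any match, on either strand, to a motif searched. The GC box was searched as GGGCGG. The CCAAT box has its own letters as its name. The site of AP-1 factors was searched as TGANTCA. The cyclic AMP response element, or CRE, was searched as TGACGTCA. The E-box was searched as CACGTG. The first 3 below, chr4:141147772-141147921 (+), chr17:88066046-88066195 (-) and chr11:32642405-32642554 (+), are of the 3 lowest, and the others, chr1:84839691-84839840 (+), chr2:25500600-25500749 (+) and chr8:85059969-85060118 (+), of the 3 highest, of which Fbxw9 passed as lower as deposited and as higher under both scalings.
Fbxo42: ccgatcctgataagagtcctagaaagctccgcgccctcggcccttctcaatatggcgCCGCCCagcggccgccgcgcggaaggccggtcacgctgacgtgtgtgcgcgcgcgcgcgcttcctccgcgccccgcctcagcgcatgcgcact
Fbxo11: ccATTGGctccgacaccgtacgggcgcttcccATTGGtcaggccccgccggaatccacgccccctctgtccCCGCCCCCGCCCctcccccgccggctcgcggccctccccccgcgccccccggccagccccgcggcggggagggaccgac
Fbxw11: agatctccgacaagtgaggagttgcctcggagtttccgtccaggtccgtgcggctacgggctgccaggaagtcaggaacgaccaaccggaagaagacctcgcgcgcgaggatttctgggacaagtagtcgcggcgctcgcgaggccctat
Fbxo36: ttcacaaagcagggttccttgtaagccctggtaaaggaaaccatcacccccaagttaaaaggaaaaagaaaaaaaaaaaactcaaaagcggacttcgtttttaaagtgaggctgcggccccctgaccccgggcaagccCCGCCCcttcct
Fbxw5: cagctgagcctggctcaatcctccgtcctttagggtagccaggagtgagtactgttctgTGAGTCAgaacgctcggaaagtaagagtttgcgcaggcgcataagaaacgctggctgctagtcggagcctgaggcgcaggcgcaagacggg
Fbxw9: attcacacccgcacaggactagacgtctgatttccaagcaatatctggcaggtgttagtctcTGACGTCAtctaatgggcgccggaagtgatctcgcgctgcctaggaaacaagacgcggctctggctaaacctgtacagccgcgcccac

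The promoters of the 3 lowest genes hold 25, 20 and 17 CpG dinucleotides in 150 bases for Fbxo42, Fbxo11 and Fbxw11. Those of the 3 highest hold 5, 10 and 11 for Fbxo36, Fbxw5 and Fbxw9. These 6 were picked by their response and are a description. Over the 250 bases before the start, 37 of the 48 F-box genes have a window, the most upstream one where a gene has several. The GC box was found in 23 of the 37 (62.2%) and in 33.0% of 27025 genes, and the CCAAT box in 10 (27.0%) and in 34.5%. The 27025 are all genes with a window, whether or not they reached the signal floor that the 37 passed, so the sets are unlike. The median count of CpG dinucleotides in the 250 bases was 14 in the 37 and 6 in the 27025. The part of this difference between the sets in the GC box shares was not tested. AP-1 and the E-box were each found in 2 (5.41%), beside 6.85% and 6.04% of all genes, and the CRE in 1 (2.70%), beside 1.60%. Of the 9 genes with a window whose limma log2 difference was -2 or lower, 7 held a GC box, as did 16 of the other 28.

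By role, the adaptors of cell cycle, growth and stress proteins were lower after UVB as deposited. Of 15 such genes, 14 were tested and 12 fell, Fbxo4 and Fbxw5 being the exceptions, beside 69.4% of all genes. The median log2 responses were -1.93 in KO-labelled and -1.72 in WT cells, and -1.06 and -0.77 after quantile normalization. Fbxo5, better known as Emi1, an inhibitor of the anaphase-promoting complex, read 133.2 units in irradiated and 577.0 units in unirradiated KO-labelled cells, against 89.2 and 452.3 units in irradiated and unirradiated WT cells. It fell by 2.23 (SE 0.15, limma adjusted p = 5.45e-06). Fbxw7, the adaptor of cyclin E, Myc, Jun and Notch, read 94.9 units in irradiated and 315.9 units in unirradiated KO-labelled cells, against 114.3 and 273.6 units in irradiated and unirradiated WT cells. It was 3.33-fold lower in KO-labelled and 2.39-fold lower in WT cells as deposited (limma adjusted p = 8.8e-05), but its log2 responses after quantile normalization were -0.63 in KO-labelled and -0.26 in WT cells, and it did not pass there. Fbxo31, an adaptor of cyclin D1, read 23.96 units in irradiated and 160.7 units in unirradiated KO-labelled cells, against 18.9 and 126.1 units in irradiated and unirradiated WT cells. Both irradiated values lay below the floor, and it was at least 6.45-fold lower in KO-labelled and at least 5.07-fold lower in WT cells.

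Within the same role, Fbxo4, another adaptor of cyclin D1, stood apart from Fbxo31. It read 116.9 units in irradiated and 113.0 units in unirradiated KO-labelled cells, against 59.9 and 100.4 units in irradiated and unirradiated WT cells. Only the irradiated WT value was set off from the rest, and the difference over both genotypes was -0.35 (SE 0.24, limma adjusted p = 0.22). Fbxo28, Fbxl14, which targets Snail proteins, and Fbxo22 fell, with log2 differences of -2.39, -2.20 and -1.28 (limma adjusted p = 6.6e-06, 2.2e-05 and 3.7e-05). Fbxl12 fell by 0.60 (limma adjusted p = 0.015). Fbxw8, which works with Cul7, was 2.49-fold lower in KO-labelled and 1.25-fold lower in WT cells by its brightest probe set. A second probe set was 1.45-fold and 1.34-fold lower.

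All 6 genes of the iron, mitochondria and metabolism group fell as deposited, beside 69.4% of all genes. The median log2 responses were -1.47 in KO-labelled and -1.39 in WT cells, and -0.54 and -0.40 after quantile normalization. Fbxl5, the iron-sensing adaptor that controls the iron regulatory protein Ireb2, read 89.5 units in irradiated and 464.5 units in unirradiated KO-labelled cells, against 113.3 and 380.5 units in irradiated and unirradiated WT cells. It fell by 2.06 (SE 0.19, limma adjusted p = 1.8e-05), and Ireb2 itself was 4.29-fold lower in KO-labelled and 4.04-fold lower in WT cells. Fbxo32, the muscle atrophy gene atrogin-1, was dim in these cells, with 74.2 units in unirradiated KO-labelled and 65.8 units in unirradiated WT cells. Irradiated signal was below the floor on both arrays, so the gene was at least 2.98-fold lower in KO-labelled and at least 2.64-fold lower in WT cells. Fbxl4, a mitochondrial protein, was 3.72-fold and 2.67-fold lower. Fbxl20 and Fbxo9 read 167.8 and 123.3 units in irradiated and 399.8 and 319.4 units in unirradiated KO-labelled cells, against 161.5 and 122.8 units in irradiated and 418.6 and 266.0 units in unirradiated WT cells. Fbxo7, a partner of parkin in the removal of damaged mitochondria, was only 1.66-fold and 2.01-fold lower, with log2 responses in WT cells of 0.0066 after quantile normalization and 0.063 after centring, so that the sign turned under both scalings.

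The glycoprotein-binding group, in which some proteins recognise sugar-bearing substrates, had all 5 of its listed genes on the array. Of 5, the 3 tested (Fbxo6, Fbxo17 and Fbxo27) fell as deposited, beside 69.4% of all genes, with median log2 responses of -0.93 in KO-labelled and -0.51 in WT cells. After quantile normalization the medians were 0.13 and 0.29. Fbxo6, the brightest of them, read 315.2 units in irradiated and 427.9 units in unirradiated KO-labelled cells, against 336.1 and 478.8 units in irradiated and unirradiated WT cells. Fbxo2 and Fbxo44 had mean signals of 21.7 and 14.7 units, below the floor.

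Genes known from germ line, oocytes or embryonic stem cells were mostly below the floor. Of 16 listed, 11 were on the array, 7 lay below the floor on all 4 arrays, and 3 were tested. Those not tested were Fbxo15, Fbxo43, Fbxw13, Fbxw14, Fbxw18, Fbxw19, Fbxw21 and Fbxw24, and those tested were Fbxw16, Fbxw17 and Fbxw22. Fbxw16 and Fbxw22 lie close together in a rodent cluster of related Fbxw genes on chromosome 9, so a probe set may read more than 1 copy and these values are uncertain. Of the nerve and muscle genes, Fbxo45, which works with Mycbp2 in synapse formation, fell by 1.80 (SE 0.18, limma adjusted p = 3.2e-05), and Fbxl16 fell by 1.13 (limma adjusted p = 0.0042). Fbxl21, a clock adaptor that targets cryptochromes, lay below the floor on all arrays, and Fbxo41 and Fbxl7 averaged below it.

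Several members outside these roles were among the most reduced. Fbxo34 read 62.1 units in irradiated and 265.4 units in unirradiated KO-labelled cells, against 14.6 and 264.8 units in irradiated and unirradiated WT cells. It was 4.27-fold lower in KO-labelled and at least 10.6-fold lower in WT cells, the lowest response of any F-box gene tested in WT. Fbxl19, whose protein binds CpG islands, was 5.27-fold lower in KO-labelled and at least 5.41-fold lower in WT cells. In KO-labelled cells Fbxo30, Fbxo33 and Fbxo38 were 4.37-fold, 3.74-fold and 3.05-fold lower, and in WT cells 3.59-fold, 3.81-fold and 3.02-fold. In KO-labelled cells Fbxo8 and Fbxw2 were 2.02-fold and 1.85-fold lower as deposited, and in WT cells 1.99-fold and 1.65-fold. Their log2 differences over both genotypes turned to 0.025 and 0.22 after quantile normalization and did not pass there. Fbxo3, one of the brightest 5, was 2.25-fold and 2.79-fold lower. Fbxo8 lay at percentiles 38.7 and 35.2 of all tested genes in KO-labelled and WT cells, and Fbxw2 at 46.0 and 48.8. These Fbxw2 values rest on its brightest probe set alone, with a mean of 204.3 units. The second brightest, at 190.3 units, had log2 responses of -1.32 in KO-labelled and -1.16 in WT cells as deposited. Over 5 Fbxw2 probe sets the responses ran from -1.32 to 0.36 in KO-labelled and from -1.65 to 0.045 in WT cells.

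By subfamily, the median log2 response of 25 Fbxo genes was -1.58 in KO-labelled and -1.40 in WT cells, of 13 Fbxl genes -1.45 and -1.06, and of 10 Fbxw genes -0.78 and -0.59. The order of Fbxo and Fbxl against Fbxw held after quantile normalization, where the Fbxw medians were 0.32 and 0.38 and the Fbxo medians -0.69 and -0.50. The Fbxw genes nonetheless held Fbxw11, among the most reduced. The difference between subfamilies was not tested. Of 20 F-box genes with several probe sets at or above the floor, all probe sets had the same sign after UVB for 17 in KO-labelled and 19 in WT cells. The responses of a gene's probe sets lay within 2-fold of each other for 15 in KO-labelled and 13 in WT cells. For KO-labelled against WT cells the signs were the same for 13 without irradiation and 12 after UVB. For the difference of responses they were the same for 10. A difference of 0, from values raised to the floor, was counted as either sign. This holds for Fbxo30, Fbxo31, Fbxo32 and Fbxo42 among the 12 after UVB, and for Fbxo3 among the 17 in KO-labelled cells. For Fbxo31 and Fbxo32 every genotype difference after UVB was 0, so no sign was measured.

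Across the 48 F-box genes the UVB responses of KO-labelled and WT cells, which share no array, correlated with a Pearson's r of 0.77 and a Spearman's rho of 0.80. Over all 11379 genes these were 0.81 and 0.78. All genes of a comparison are read from the same pair of arrays and are not independent replicates. The array-wide shift also went with signal level. The 31 F-box genes with mean signal from 100 to 400 units had median log2 responses of -1.37 in KO-labelled and -1.37 in WT cells, beside -1.03 and -0.96 for 4250 genes of that signal. The 15 below 100 units had medians of -1.40 and -1.04, beside -0.81 and -0.65 for 3830 genes. Several of these 15, such as Fbxo31 and Fbxo32, had irradiated values raised to the floor, so their responses are bounds. The same floor was applied to the 3830 genes. From 400 units up, the medians of 3299 genes were closer to 0, at -0.60 and -0.50, while those of 2 F-box genes were -1.803 and -2.001. The part of signal level in the F-box medians was not tested. Long genes had somewhat lower responses in the series as a whole. Against log2 gene span the Pearson correlation over 11351 genes was -0.29 in KO-labelled and -0.32 in WT cells, and over the 48 F-box genes -0.22 and -0.19. The 27 F-box genes shorter than 30 kb had median log2 responses of -1.34 in KO-labelled and -1.11 in WT cells, beside -0.69 and -0.55 for 6700 genes of that span. Fbxl14 and Fbxo5, with spans of 4.22 and 6.31 kb, were among the most reduced, while Fbxo36 spans 60.6 kb.

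**Figure D4:**
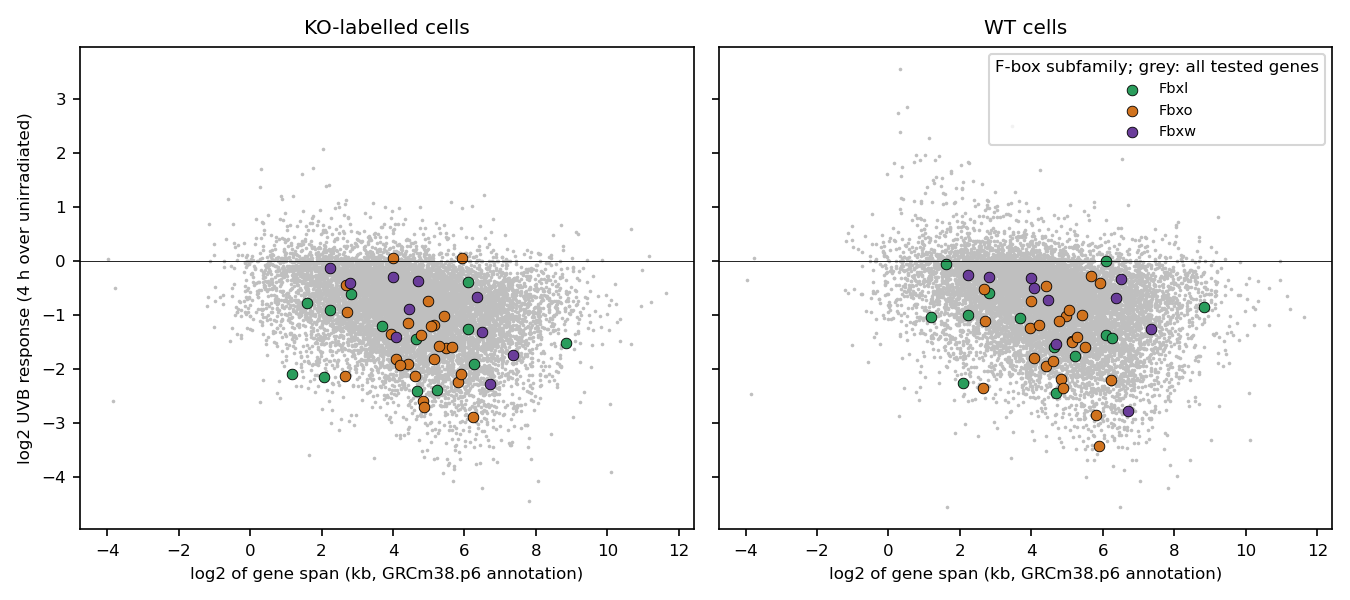
Log2 UVB response in KO-labelled (left) and WT cells (right) against log2 of gene span in kb, with F-box genes coloured by subfamily and all tested genes in grey. Among the lowest points are short F-box genes such as Fbxl14 (4.22 kb) and long ones such as Fbxw11 (104 kb).

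Few F-box genes differed by 2-fold between the genotypes. In limma 0 of the 48 passed for genotype in either direction, where 0.967% of all genes were higher and 0.642% lower in KO-labelled cells, and 7 had an unadjusted p under 0.05, where 17.4% of all genes did. The genotype calls were also 0 and 0 after quantile normalization, where 0.876% and 1.41% of all genes were higher and lower, and after centring, where 0.63% and 1.37% were. The median log2 difference of unirradiated KO-labelled against WT cells was 0.23, beside 0.16 over all genes, and 0.06 after quantile normalization. At 2-fold, 1 gene was higher (1.63% of all genes were) and 0 were lower (0.729% were). This was Fbxo10, whose protein targets Bcl2, with 74.6 units in unirradiated KO-labelled against 30.01 units in unirradiated WT cells. It was 2.49-fold higher, and on both irradiated arrays it lay below the floor, with 14.3 units in KO-labelled and 5.40 units in WT cells. Fbxo21, Fbxo46 and Fbxo17 followed at 1.71-fold, 1.68-fold and 1.63-fold higher in KO-labelled cells, and Fbxw22 was lowest at 0.597 times the WT signal. Another Fbxo21 probe set of nearly equal mean signal showed no such difference. It read 97.0 units in unirradiated KO-labelled and 96.7 units in unirradiated WT cells. After quantile normalization 1 F-box gene was 2-fold higher and 0 were 2-fold lower, where 0.517% and 0.718% of all genes were. After centring both counts were 0, where 0.508% and 0.665% of all genes were.

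**Figure D5:**
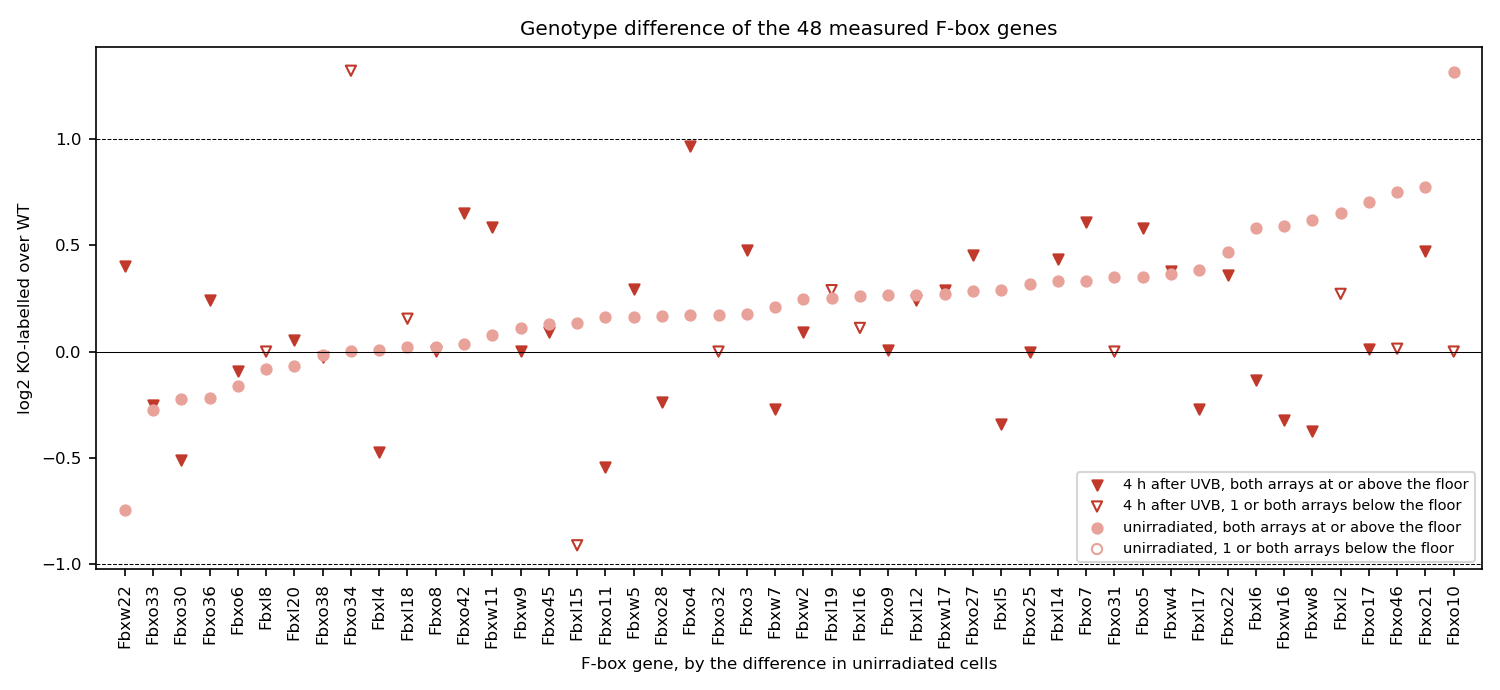
Log2 ratio of KO-labelled over WT signal for the 48 F-box genes, 4 h after UVB (triangles) and without irradiation (circles), with open symbols where at least 1 of the arrays lies below the floor and dashed lines at 2-fold. Fbxo10 without irradiation, at 2.49-fold, and Fbxo34 after UVB, at least 2.49-fold, lie past the upper line.

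After UVB, the median log2 difference of KO-labelled against WT cells was 0.03, beside 0.05 over all genes. Fbxo34 was at least 2.49-fold higher in irradiated KO-labelled cells, the 1 F-box gene past 2-fold, where 1.41% of all genes were that much higher and 1.47% that much lower. Quantile normalization gave 1 higher and 1 lower, where 2.21% and 2.74% of all genes were. Centring likewise gave 1 and 1, where 1.79% and 3.07% of all genes were. Fbxo4 was 1.95-fold higher in irradiated KO-labelled cells, Fbxo42 1.57-fold and Fbxo7 1.52-fold. Fbxl15, whose protein controls BMP signalling through Smurf1, read 17.3 units in irradiated KO-labelled and 46.8 units in irradiated WT cells, and Fbxo11 was at 0.688 times the WT signal. For Fbxw11, at 497.1 units in irradiated KO-labelled and 331.5 units in irradiated WT cells, the order of the genotypes turned between probe sets, with 136.2 units in irradiated KO-labelled and 177.4 units in irradiated WT cells by the second brightest.

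The UVB responses differed at least 2-fold between the genotypes for 4 F-box genes, 2 in each direction, where 1.34% of all genes had a 2-fold higher and 2.94% a 2-fold lower response in KO-labelled cells. Fbxo34 and Fbxw22 were less reduced in KO-labelled cells, by at least 1.32 and by 1.15 on the log2 scale. Fbxw22 read 135.2 units in irradiated and 175.5 units in unirradiated KO-labelled cells, against 102.3 and 294.1 units in irradiated and unirradiated WT cells. The response of Fbxl15 was lower in KO-labelled cells, with a difference of -1.04 in which the irradiated KO-labelled value was raised to the floor. For Fbxo10 both irradiated values were raised to the floor, so its difference of -1.31 is the unirradiated genotype difference with its sign turned and does not show which genotype was more reduced. Quantile normalization gave 2 genes in each direction, where 2.42% of all genes had the higher and 2.73% the lower response, and centring 2 and 1, where 1.98% and 2.92% did. With 1 array a group none of these differences can be tested. Beside the genotype comparisons, the summed signal of 10 fibroblast markers was 5224 units in irradiated and 7609 units in unirradiated KO-labelled cells, against 3091 and 3921 units in irradiated and unirradiated WT cells. That of 8 melanocyte markers was 5637 and 8694 units in irradiated and unirradiated KO-labelled cells, against 4846 and 6179 units in irradiated and unirradiated WT cells. Limma called 6 of the 10 fibroblast and 0 of the 8 melanocyte markers higher in KO-labelled cells, beside 0.967% of all genes. Without irradiation 4 fibroblast markers and 1 melanocyte marker were at least 2-fold higher there, beside 1.63% of all genes. After UVB 0 of either were, beside 1.41%. None of these 18 markers was at 0, and their part in the genotype differences was not tested.

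The core of the ligase lay close to the array-wide shift. Of 28 SCF core and neddylation genes, 22 fell and 0 rose, beside 69.4% and 0.703% of all genes. The median log2 responses were -0.79 in KO-labelled and -0.59 in WT cells, beside -0.82 and -0.70 over all genes, and -0.04 and -0.13 after quantile normalization. Skp1 read 3111 units in irradiated and 3266 units in unirradiated KO-labelled cells, against 2793 and 3026 units in irradiated and unirradiated WT cells, a difference of -0.09 (SE 0.09, limma adjusted p = 0.37). Cul1 read 398.3 units in irradiated and 942.2 units in unirradiated KO-labelled cells, against 215.4 and 929.9 units in irradiated and unirradiated WT cells, and fell by 1.68 (limma adjusted p = 5.5e-05). The COP9 subunit genes Cops6 and Cops3 had differences of -0.06 and -0.16 and did not pass, nor did Nedd8 and Cks1b. Of 14 tested genes of other cullin ligases, 12 fell, beside 69.4% of all genes, and the median log2 responses were -0.80 in KO-labelled and -0.79 in WT cells, and 0.089 and -0.085 after quantile normalization. Klhl12 was 4.71-fold lower in KO-labelled and 5.13-fold lower in WT cells, and Elob and Eloc did not pass.

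All 6 tested F-box genes with other symbols fell, beside 69.4% of all genes, and their median log2 responses after quantile normalization were -0.83 in KO-labelled and -1.16 in WT cells. Ccnf, which encodes cyclin F, was 11.4-fold lower in KO-labelled and 10.2-fold lower in WT cells. Skp2, the adaptor of p27, was 6.19-fold and 8.36-fold lower, and the histone demethylase gene Kdm2b 6.90-fold and 7.56-fold lower. All 6 tested genes of kinases and other partners linked to Fbxw7 and its substrates also fell, beside 69.4% of all genes, with log2 differences of -1.84 for Csnk1d and -1.64 for Gsk3b. Their median log2 responses after quantile normalization were -0.64 in KO-labelled and -0.65 in WT cells. Of 22 tested genes that encode known substrates of F-box ligases, 19 fell and 1 rose, beside 69.4% and 0.703% of all genes. Their median log2 responses after quantile normalization were -0.62 in KO-labelled and -0.41 in WT cells. Wee1, a mitotic inhibitor kinase, was 8.60-fold lower in KO-labelled and 11.4-fold lower in WT cells, and Myc 4.80-fold and 5.93-fold lower. Cdkn1a, the p53-induced inhibitor p21, rose by 0.50 (SE 0.15, limma adjusted p = 0.015), with 3937 units in irradiated and 3614 units in unirradiated KO-labelled cells, against 6276 and 3418 units in irradiated and unirradiated WT cells. These are RNA signals and say nothing of protein levels or ligase activity.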

How the data were processed

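RNA from 4 cultures was hybridised to 1-colour Affymetrix arrays, 1 for each group, and groups were taken from the labels. MAS5 is named in the submitters' processing notes. The authors deposited signal intensity for each probe set, linear and in arbitrary units. The sources used here do not state a MAS5 version, a scaling target or detection calls. Gene names come from the platform annotation. All 66 F-box genes, with 114 probe sets, were found by gene ID in a RefSeq table, with 0 symbols changed.

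Log2 signal of the 11379 genes averaging at least 24.9 units was fitted with limma 3.58.1 in R 4.3.3, with irradiation and genotype as terms and a trend with intensity. The fit had 1 residual and 8.13 prior degrees of freedom, and p-values were adjusted by Benjamini-Hochberg over all genes, with 0.05 as the threshold. It was also run on simulated data with independent noise and a small set of changed genes. That setting holds no array-wide shift, so it cannot check the fit for data like these. Alternatives were quantile normalization, median centring, other floors, folds and choices of probe set, and limma without the trend or the second term. Genes were named as the 5 highest and 5 lowest of each comparison, the brightest 5, and listed role groups. Fbxo38, Fbxo8, Fbxw2 and Fbxw4 were named outside this rule after their values were seen. Members and lists were chosen with earlier results of these data known.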

Additional observations from a re-analysis of the deposited data

Results flagged for a closer look

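As deposited, the UVB responses of 2 F-box genes measured above the floor on all 4 arrays pointed in opposite directions in the genotypes. Fbxo36 had a log2 response of 0.06 in KO-labelled and -0.40 in WT cells, a difference of 0.46, and its second probe set was lower in both, at -0.30 and -0.19. Fbxo4 had a log2 response of 0.05 in KO-labelled and -0.74 in WT cells, a difference of 0.79. With 1 array a group the difference was not tested, and both KO-labelled responses are close to 0 as deposited. After quantile normalization both genes had responses above 0 in both genotypes. Fbxo36 was then at 1.10 in KO-labelled and 0.54 in WT cells, and Fbxo4 at 1.15 and 0.31.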

How the results depend on the processing

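As deposited, 33 F-box genes were 2-fold lower after UVB in KO-labelled and 29 in WT cells, and limma called 42 lower and 0 higher. Quantile normalization gave 13, 11, 17 and 7, median centring 9, 10, 15 and 7, and the floor at the 75th percentile 17, 16 and 24 lower. A 3-fold threshold gave 19 in KO-labelled and 14 in WT cells. The 0 genes that were 2-fold higher became 2 in KO-labelled cells under quantile normalization, and 3 in KO-labelled and 1 in WT cells under centring. The 1 gene higher in unirradiated KO-labelled than WT cells became 0 under centring, 3 with a floor at the 25th percentile, 0 with that at the 75th, and 7 and 0 at 1.5-fold and 3-fold. The 0 lower there became 1 at 1.5-fold. After UVB, the 1 gene higher in KO-labelled cells became 2 and 0 with those floors and 4 and 0 at those folds, and the 0 lower became 1 under either scaling, 2 with the lower floor and 1 at 1.5-fold. The 4 genes with differing responses became 7 and 0 with those floors and 14 and 0 at those folds. Shares of all genes were not counted at the other floors and folds. The counts given for those settings, UVB counts included, therefore cannot be set against the array-wide rate. Fewer F-box genes reach the floor at the 75th percentile, 128.9 units, than reach the floor of 24.9 units. Its smaller counts come from a smaller set and do not by themselves show a changed response. Limma called 0 F-box genes for genotype under all alternatives run.

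Among F-box genes 2-fold lower or called lower after UVB as deposited, log2 differences turned above 0 under quantile normalization for Fbxo8 in KO-labelled cells at 0.057, Fbxo7 in WT cells at 0.0066 and, over both genotypes in limma, Fbxo8 at 0.025, Fbxw2 at 0.22, Fbxw4 at 0.42, Fbxl12 at 0.48, Fbxo17 at 0.070, Fbxo6 at 0.38, Fbxo7 at 0.16, Fbxw22 at 0.11, Fbxw8 at 0.074 and Fbxw9 at 0.54. Under centring they did so for Fbxo8 in KO-labelled cells at 0.118, Fbxl15 and Fbxo7 in WT cells at 0.028 and 0.063 and, in limma, Fbxo8 at 0.099, Fbxw2 at 0.295, Fbxw4 at 0.42, Fbxl12 at 0.50, Fbxo17 at 0.30, Fbxo21 at 0.048, Fbxo27 at 0.081, Fbxo6 at 0.62, Fbxo7 at 0.23, Fbxw16 at 0.16, Fbxw22 at 0.15, Fbxw8 at 0.28 and Fbxw9 at 0.75. The centred medians of all genes lay at 0.28 in KO-labelled and 0.32 in WT cells, so a centred value just above 0 is still below the median gene. With the floor at the 75th percentile the response difference of Fbxo34 was -0.0032, since its irradiated values are then raised. The cause of the other changes was not tested. No paired analysis was possible because each group has 1 array and the labels carry no replicate numbers; for the same reason no array could be left out.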
